A study of Homo sapiens with 6 samples.

Results

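The imprinted genes PLAGL1 and IGF2R on chromosome 6, GRB10, PEG10, SGCE and MEST on chromosome 7, and PEG3, ZIM2 and ZNF331 on chromosome 19 were followed through resetting of human embryonic stem cells. They were chosen by name and position, with earlier results of these data known, and are 9 of the 63827 genes annotated on chromosomes 1 to 22 and X. They lie at 7 loci, since PEG10 and SGCE share a start region, as do PEG3 and ZIM2. CpG methylation had been measured by whole-genome bisulfite sequencing in H9 cells, a long-established line of human embryonic origin, with 3 conventional and 3 reset libraries. Both groups grew on mouse embryonic fibroblast feeders. Conventional cells had 10 ng/ml bFGF and 20% KSR, a serum replacement. Reset cells came from H9 cells carrying doxycycline-inducible NANOG and KLF2 transgenes. After the doxycycline was taken away they were kept in t2iL+Gö, which holds 1 µM CHIR99021 (a GSK3 inhibitor), 1 µM PD0325901 (a MEK inhibitor), human LIF and 5 µM Gö6983 (a protein kinase C inhibitor). Both groups were kept at 5% oxygen, and both are H9, so the values stand for 1 line.

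Imprinted genes are expressed according to the parent from which each copy came. The mark is set in the germ line as DNA methylation over a CpG-rich region, and each of these 7 loci holds such a region that is normally methylated on the maternal copy. In most somatic cells the region therefore sits near the middle of the methylation scale, and after fertilisation it normally withstands the demethylation that sweeps the rest of the genome. ZFP57, a zinc finger protein that binds the methylated letters TGCCGC, guards many of these regions.

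A methylation level here is the share of methylated calls among all calls at the CpGs of a region in a library, printed as a percent. Levels are listed in the order of replicates 1 to 3, and means are given ± SD with n = 3 libraries. The libraries held 70329213 to 98004161 calls, or 2.51 to 3.49 per CpG. Their level over all calls was 84.3 to 84.6% in conventional and 29.5 to 30.3% in reset cells, so a fall is the rule in these data and each count below is read against it. Where a level of 0 is printed, it allows up to 3 methylated calls of those made there. Reads were not assigned to parental copies. A level near the middle can come from 1 methylated copy or from a mixture of cells, and these cannot be told apart. The test of a region was a logistic model with quasi-binomial spread across the libraries, and a region with an adjusted p under 0.05 is called lower or higher.

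The sequences that carry the finding are windows of 150 bp, taken from the GRCh37 plus strand with every CpG in capitals. At 6 loci the window was taken within the CpG island of at least 200 bp with the most CpGs among those at 30% or more in conventional cells. No such window was found for PEG10/SGCE, so there it comes from a 500-bp tile (94286001 to 94286500) at 30% or more. Since the regions were chosen by their conventional level, the differences at these windows are a description. The window shown has the most CpGs among those free of protein-coding exons and with 10 or more calls in every library.
PLAGL1, chr6:144329052-144329201: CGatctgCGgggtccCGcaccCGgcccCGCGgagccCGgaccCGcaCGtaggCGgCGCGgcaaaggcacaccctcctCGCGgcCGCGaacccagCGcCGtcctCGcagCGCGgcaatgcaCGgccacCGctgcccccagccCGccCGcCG
IGF2R, chr6:160426414-160426563: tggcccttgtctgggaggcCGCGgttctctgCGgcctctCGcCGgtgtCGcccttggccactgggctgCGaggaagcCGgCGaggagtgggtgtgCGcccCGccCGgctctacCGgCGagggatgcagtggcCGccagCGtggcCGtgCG
GRB10, chr7:50849783-50849932: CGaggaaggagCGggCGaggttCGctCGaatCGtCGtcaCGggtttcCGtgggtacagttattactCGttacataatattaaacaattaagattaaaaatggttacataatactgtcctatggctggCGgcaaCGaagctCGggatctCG
PEG10, chr7:94286203-94286352: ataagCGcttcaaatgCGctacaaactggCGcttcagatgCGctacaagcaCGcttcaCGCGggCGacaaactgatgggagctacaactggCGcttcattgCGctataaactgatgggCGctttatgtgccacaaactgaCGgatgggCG
MEST, chr7:130130770-130130919: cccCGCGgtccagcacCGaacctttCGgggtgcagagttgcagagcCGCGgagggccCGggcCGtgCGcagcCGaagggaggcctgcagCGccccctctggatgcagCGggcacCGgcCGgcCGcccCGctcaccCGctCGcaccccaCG
PEG3, chr19:57351787-57351936: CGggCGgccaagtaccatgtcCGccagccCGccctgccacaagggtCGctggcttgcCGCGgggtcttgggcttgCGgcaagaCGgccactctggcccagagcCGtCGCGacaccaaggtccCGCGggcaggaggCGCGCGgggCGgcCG
ZNF331, chr19:54041053-54041202: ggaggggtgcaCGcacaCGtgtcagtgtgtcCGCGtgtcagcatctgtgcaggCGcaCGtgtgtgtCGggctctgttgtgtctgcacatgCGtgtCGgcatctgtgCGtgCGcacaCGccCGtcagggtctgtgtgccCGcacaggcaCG

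The PLAGL1 window, with 26 CpGs, was at 44.4, 100 and 52.2% in conventional and 0, 0 and 1.25% in reset cells. The PEG3 window, with 19 CpGs, went from 97.7, 77.5 and 100% to 0, 5.88 and 0%. In the PEG10 window, whose tile lay in the range of 30 to 70% while the island of at least 200 bp around it (chr7:94284388-94286705) was only at 15.5, 16.7 and 24.5%, the levels were 11.7, 45.5 and 51.2% in conventional cells, and no methylated call remained in a reset library. With 22 calls in the thinnest library, a count of 0 still allows a level of up to 13.6%. At these 3 windows, and at those of IGF2R and GRB10 below, each reset library lay below each conventional library. The same held at 95.1% of all 500-bp tiles tested.

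The IGF2R window was nearly full in conventional cells, at 92.9, 100 and 100%, and kept 23.1, 24.3 and 55.9% in reset cells. The GRB10 window went from 80, 43.2 and 44.3% to 5.41, 13.9 and 16.7%. The MEST window overlapped between the groups, at 45.1, 38 and 22.2% and 40.4, 46.5 and 17.02%. The ZNF331 window showed how far libraries of a group can part at such a small size, with 0, 27.9 and 100% in conventional cells and 0% in each reset library, where a count of 0 on 14 calls allows up to 21.4%. The windows rest on 10 to 81 calls per library, so whole islands are used for the tests, and such limits cover counting error only.

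A second pair of windows comes from 500-bp tiles chosen for a level of 30 to 70% in conventional cells that was still at 30% or more in reset cells, beside but outside the PLAGL1 island and in an intron of MEST. GRB10 also has such a window, which is not printed, since its conventional libraries spread from 6.25 to 81.2% on 16 to 32 calls, and its reset libraries were at 36.7, 21.4 and 48.3%.
PLAGL1 flank, chr6:144328159-144328308: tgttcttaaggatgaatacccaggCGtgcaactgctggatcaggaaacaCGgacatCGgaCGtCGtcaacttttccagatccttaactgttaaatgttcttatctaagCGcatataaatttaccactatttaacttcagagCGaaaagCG
MEST intron, chr7:130132819-130132968: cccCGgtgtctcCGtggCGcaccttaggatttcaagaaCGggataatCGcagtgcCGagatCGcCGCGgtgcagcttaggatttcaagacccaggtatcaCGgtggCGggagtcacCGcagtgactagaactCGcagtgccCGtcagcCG

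The PLAGL1 flank window was at 51.4, 57.7 and 52.6% in conventional and 48.6, 50 and 56.8% in reset cells, on 34 to 52 calls per library. The PLAGL1 window above, which was emptied, lies within 1 kb of it. The MEST intron window was at 57.5, 34.5 and 49.1% and 65.1, 4 and 33.9%, with a wide spread in the reset libraries.

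CpG islands were predicted from sequence alone (at least 500 bp, GC of at least 55%, observed to expected CpG ratio over 0.65), so the 15 islands at the 7 loci were not picked by level. The genes themselves were chosen with earlier results of these data known. In reset cells 9 of the 15 were lower, 1 was higher and 5 did not pass. Over all 23950 islands tested, 36.6% were lower and 10.4% higher. The groups did not overlap, with reset cells below, at 10 of the 15 islands, against 40.7% of all islands, and with reset cells above at 1, against 13%. Most islands of the genome are unmethylated in both states, with medians of 3.33 and 2.99%, while 9 of these 15 began at 30% or more, so these shares are not read as particular to the loci.

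**Figure D1:**
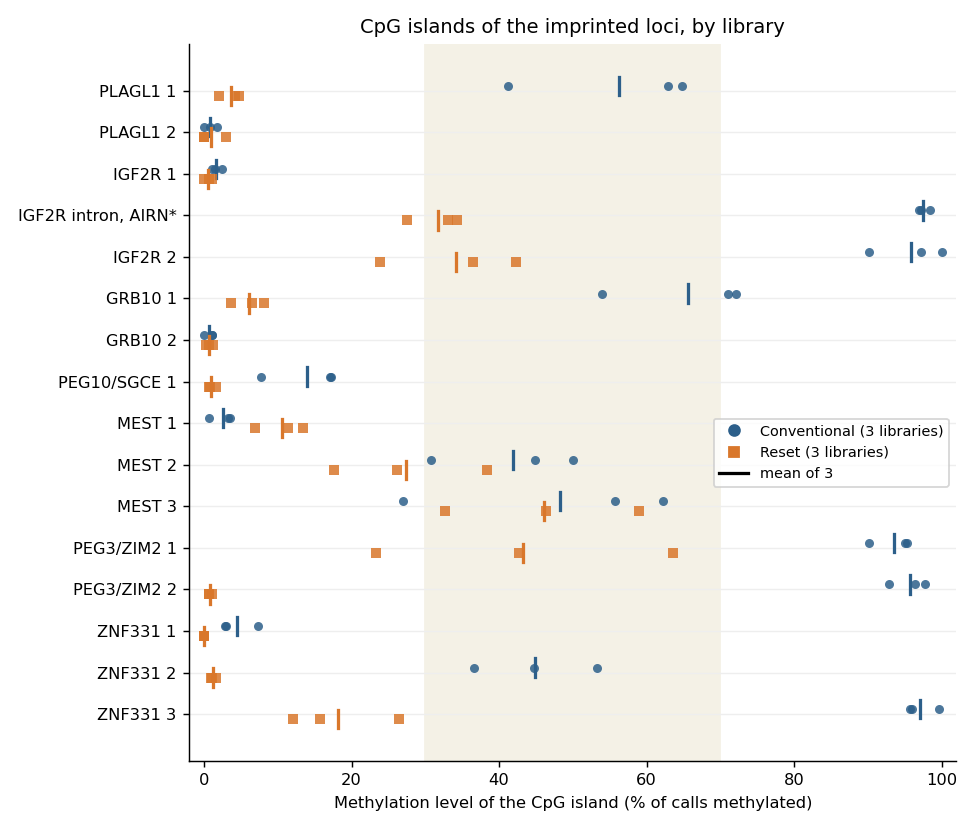
Methylation level (percent of calls, horizontal axis) of the 15 CpG islands at the imprinted loci, numbered along the chromosome, plus the island in the IGF2R intron (asterisk, from the set of islands of at least 200 bp). Circles are the 3 conventional and squares the 3 reset libraries, ticks are means, and the shaded range is 30 to 70%. The islands of PLAGL1, GRB10, PEG3/ZIM2 and ZNF331 that sit within or above the range in conventional cells drop to the left, while MEST 2 and MEST 3 overlap between the groups.

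The 5 islands within 30 to 70% in conventional cells are those of PLAGL1, GRB10, MEST (2 islands) and ZNF331. Of these, PLAGL1, GRB10 and ZNF331 ended below 10% in reset cells and both MEST islands did not. Across the genome 1303 islands lay in that range, with a median of 44.8% that became 7.93%, and 55.1% of them ended below 10%. Without the X chromosome 912 islands remained, the medians were 46.99 and 13.8%, and 41.3% ended below 10%. The 4 member islands over 70% are 1 of IGF2R, 2 of PEG3/ZIM2 and 1 of ZNF331, and 5892 islands of the genome over 70% went from a median of 94.02 to 39.6%.

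Promoters were taken at every annotated transcription start, from 1000 bp upstream to 500 bp downstream. The 9 genes have 192 such windows, of which 189 had enough calls to test, and 168 were lower, 3 higher and 18 did not pass. The count of higher windows was 7 without conventional replicate 3 and 1 without reset replicate 1 or 2. Over all 212164 promoters tested, 80.9% were lower and 2.82% higher. The windows of a gene overlap heavily and share reads, so they fall into 52 clusters of overlapping windows, and 1 start of each cluster, the canonical one where there is one, is used below. The clusters were made gene by gene: PEG3 and ZIM2 share the start 57352094, which is counted under both, and the windows of PEG10 and SGCE overlap, so some reads enter the counts more than once. Of these 52 starts 42 were lower, 1 was higher, 6 did not pass and 3 starts of SGCE had too few calls. Among the 13 of them that overlap an island 9 were lower and 4 did not pass, and outside islands the counts were 33 lower, 1 higher and 2 not passed of 36 tested. The starts in islands began lower, with a conventional median of 47.3% beside 89.8% outside. No share over all promoters split in this way is given, so the contrast is not read as a trait of these genes.

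**Figure D2:**
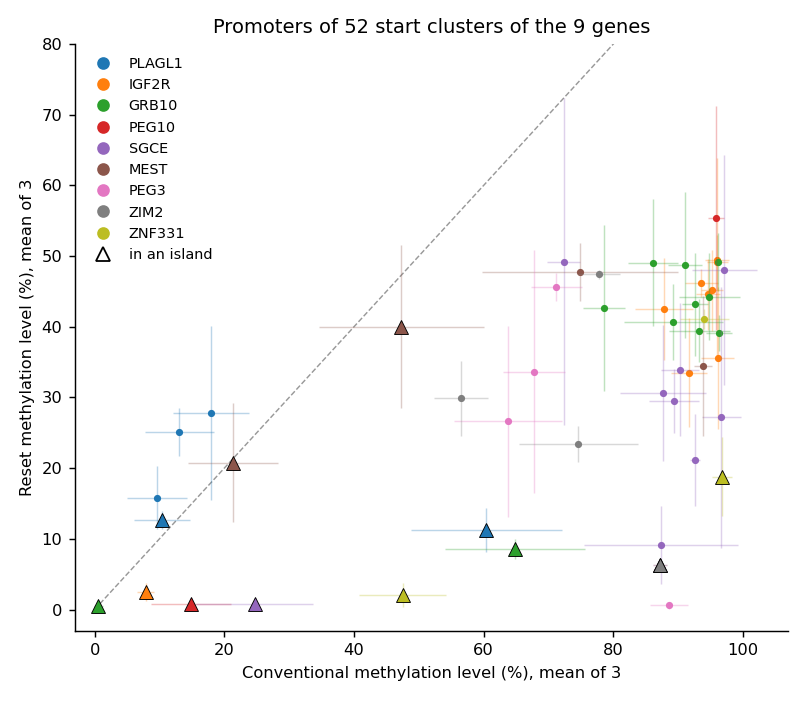
Mean methylation level of the 52 representative promoters in conventional (horizontal) and reset cells (vertical), in percent, with SD bars over 3 libraries. Colours are genes, triangles are promoters that overlap a CpG island, and the dashed line marks equal levels. Promoters outside islands that start near 90% end mostly between 20 and 55%, the triangles of PEG3, ZIM2, GRB10, PLAGL1 and ZNF331 end below 20%, and the PLAGL1 starts at the far left lie on or above the line.

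PLAGL1, at chr6:144261437-144385736 on the minus strand, encodes a zinc finger transcription factor that restrains growth, and shares its imprinted start with the noncoding RNA HYMAI. The canonical promoter (start 144329396) was at 46.98, 66.2 and 68.1% in conventional and 12.8, 7.63 and 13.4% in reset cells. It fell from 60.4% ± 11.7 to 11.3% ± 3.17 (adjusted p = 5.22e-09). All 12 windows of this cluster, which share reads, were lower, beside 80.9% of all promoters. The island beneath it (chr6:144328836-144329925, exons of HYMAI and PLAGL1) went from 41.2, 64.9 and 62.9% to 4.15, 2.02 and 4.68% (adjusted p = 4.97e-05), and conventional replicate 1 was the lowest of its group at both.

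The distal promoter of PLAGL1 (start 144385736) lies in an island that was unmethylated in both states, chr6:144384735-144386012, with means of 0.877 and 0.971%. Its wider window was at 6.67, 9.27 and 15.2% and 13.95, 12.6 and 11.4% and did not pass (adjusted p = 0.261). Without conventional replicate 3 it was higher by 4.69 points (adjusted p = 0.03703). A start further into the gene (144286005, outside islands) rose from 7.32, 14.3 and 17.6% to 27.1, 27.1 and 21.2% (adjusted p = 0.01801), and its groups did not overlap, as at 2.99% of all promoters in that direction. The other starts of the gene body, 144282549 and 144290087, had means of 9.62 and 17.9% in conventional and 15.8 and 27.8% in reset cells and did not pass.

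IGF2R, at chr6:160390114-160534539 on the plus strand, encodes the receptor that carries mannose 6-phosphate tagged proteins to lysosomes and clears the growth factor IGF2. In human its imprinted expression varies between individuals, and its maternally methylated region lies inside the gene, near the start of the antisense RNA AIRN. The canonical promoter (start 160390114) went from 9.31, 7.59 and 6.74% to 1.6, 3.97 and 1.86% (adjusted p = 0.00152), a fall between low levels. With a window from 500 bp upstream to 500 bp downstream the difference was -0.937 points and no longer passed (adjusted p = 0.2796). The island there was at 1.67 and 0.573% and did not pass. The 8 other start clusters, all in the gene body, lay between 87.8 and 96.1% in conventional and 33.5 and 49.5% in reset cells.

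The island near AIRN (chr6:160426067-160427849, intronic to IGF2R) has 116 CpGs and is in the set of islands of at least 200 bp, where 83.8% of all islands tested were lower. It was at 96.9, 97.2 and 98.4% in conventional cells, close to full and with no library in the middle range. In reset cells it held 33.1, 27.5 and 34.4% (adjusted p = 4.83e-10), which is 32.5% of its conventional level. The AIRN promoter, just beyond the island, went from 88.6, 94.3 and 79.4% to 8, 22.9 and 37.04%. A second intronic island (chr6:160511871-160512518) went from 95.8% ± 5.06 to 34.2% ± 9.48.

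GRB10, at chr7:50657760-50861159 on the minus strand, encodes an adaptor that dampens insulin and growth factor receptor signalling. The canonical promoter (start 50850593) went from 68.97, 72.9 and 52.6% to 8.54, 10 and 7.14% (adjusted p = 6.73e-10). Its island (chr7:50849632-50851026) fell from 65.7% ± 10.2 to 6.09% ± 2.28 (adjusted p = 1.26e-05), and conventional replicate 3, at 53.9%, was the lowest of its group. The upstream island (chr7:50860131-50861702) did not pass (adjusted p = 0.971), with means of 0.693 and 0.731%. The 9 start clusters of the gene body outside islands had means of 78.5 to 96.3% in conventional and 39.1 to 49.2% in reset cells, while the island of the canonical start was at 9.28% of its conventional level.

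PEG10 (chr7:94285637-94299007, plus strand) is a gene derived from a retrotransposon that the placenta needs, and SGCE (chr7:94153516-94285884, minus strand) encodes epsilon-sarcoglycan, a membrane protein whose loss causes myoclonus dystonia. They start head to head from the same island. That island (chr7:94284800-94286033) was at 17.2, 7.75 and 17.02% in conventional and 0.758, 1.59 and 0.641% in reset cells (adjusted p = 4.10e-04). The PEG10 promoter (start 94285682) went from 17.4, 7.83 and 19.3% to 0.581, 1.39 and 0.495% and the SGCE promoter (start 94285445) from 18.4, 20.6 and 35.02% to 0.457, 1.41 and 0.476%. Both were below 30% on average in conventional cells. The tile over the SGCE start, from 94285001, was at 3.79%, and levels rose from there into PEG10, with 22.4% in the next tile and 41.3% in the one after.

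The 47 annotated SGCE windows at this island shared most of their reads and ranged from 18.1 to 32.1% in conventional and 0.494 to 0.789% in reset cells. In the SGCE body the start 94255713 had the lowest reset level, going from 73.7, 93.3 and 95% to 6.67, 5.26 and 15.4%, on 13 to 30 calls per library. The downstream PEG10 start (94294047), outside islands, went from 96.6, 94.3 and 96.4% to 48.5, 44.2 and 73.5%.

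MEST (chr7:130126012-130146306, plus strand) encodes a protein of the hydrolase fold and is expressed from the paternal copy in development, with the antisense RNA MESTIT1 beside it. The canonical promoter (start 130131926) was at 55.2, 54.01 and 32.7% in conventional and 26.9, 44.4 and 48.7% in reset cells. The groups overlapped and the difference of -7.31 points did not pass (adjusted p = 0.163). Conventional replicate 3 was the low library of its group, and without it the difference was -14.6 points and passed (adjusted p = 0.0101). It also passed with Fisher's exact test on pooled calls (adjusted p = 0.00342), a test that ignores the spread between libraries.

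The island upstream of that start (chr7:130130620-130131580) was at 50, 30.8 and 44.8% and 26.1, 38.4 and 17.6% (adjusted p = 0.134). The island over it (chr7:130131687-130132515) was at 55.7, 62.2 and 26.97% and 32.7, 46.4 and 59.03% (adjusted p = 0.821). At neither of these 2 did the groups separate in the main test, though the upstream one passed Fisher's exact test on pooled calls (adjusted p = 1.88e-04). With islands of at least 200 bp the edges shift and the call differs. The wider upstream island (chr7:130130114-130131602) was lower, from 48.2, 46.9 and 45.2% to 28.4, 35.7 and 16.3% (adjusted p = 6.83e-04), with each reset library below each conventional one. The next (chr7:130131666-130132554) did not pass, at 54.7, 61.6 and 27.2% and 32.7, 46.9 and 57.05% (adjusted p = 0.717). The last (chr7:130132558-130133164) was lower with overlapping groups, from 64.7, 61.2 and 40.5% to 49.7, 22.2 and 45.5% (adjusted p = 0.0465), and 83.8% of all such islands were lower. Each of the 3 kept over 20% on average in reset cells. At the second 500-bp island the difference was -2.25 points and turned to 1.46, 4.699 and 4.41 points without conventional replicate 1, conventional replicate 2 or reset replicate 1. The MESTIT1 promoter, read over a part of the same region, did pass, from 47.9, 41.5 and 42.4% to 28.5, 36.8 and 18.8% (adjusted p = 0.00213).

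A further island at the first MEST start (chr7:130125904-130126901) is the only member island that rose, from 3.54, 0.697 and 3.29% to 11.4, 13.4 and 6.897% (adjusted p = 0.00523). The rise was seen in 3 of 3 reset libraries. The promoter of start 130126967 overlaps the island and shares reads with it, so its rise is not a second finding. That promoter went from 5.19, 1.39 and 5.23% to 11.2, 13.6 and 6.897% (adjusted p = 0.00254). The representative start of that cluster (130126012), whose window reaches upstream of the island, was at 21.3 and 20.8% and did not pass. The 2 starts in the MEST body fell, 130134371 from 74.9% ± 15.1 to 47.8% ± 4.04 and 130137518 from 93.9% ± 1.36 to 34.5% ± 9.88.

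PEG3 (chr19:57321445-57352096) and ZIM2 (chr19:57285915-57352099), both on the minus strand, encode zinc finger proteins and share a promoter and first exons, so their shared windows are the same measurement counted under 2 names. PEG3 is expressed from the paternal copy and bears on growth and maternal behaviour in mouse. The shared canonical promoter (start 57352094) went from 88.4, 86.7 and 86.5% to 6.47, 6.63 and 5.696% (adjusted p = 6.31e-13). Its island (chr19:57351125-57352213) went from 97.7, 92.9 and 96.3% to 1.07, 0.719 and 0.671% (adjusted p = 6.41e-07), the largest difference among the 15 islands. The island was thus over 90% in 3 of 3 conventional libraries and nearly empty in 3 of 3 reset libraries.

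The noncoding RNA MIMT1 starts from the same region in the other direction, and its promoter went from 91.9, 91.2 and 88.6% to 4.803, 4.41 and 3.43%. A PEG3 start inside the gene (57349186) went from 87.03, 91.97 and 86.8% to 0.763, 0 and 1.04%, deeper than the canonical window. The other PEG3 and ZIM2 starts, outside islands, had means of 56.6 to 77.8% in conventional and 23.4 to 47.4% in reset cells. The island in the ZIM2 intron (chr19:57306544-57307217) stood between, from 95.3, 95.1 and 90.1% to 42.7, 63.6 and 23.3% (adjusted p = 0.00184), with the widest reset spread of the 15 islands.

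ZNF331 (chr19:54022781-54083523, plus strand) encodes a zinc finger protein and has 3 islands, of which the canonical start lies in the middle one. The canonical promoter (start 54041399) went from 46.7, 41.2 and 54.6% to 4.02, 0.833 and 1.41% (adjusted p = 3.19e-10), and its island (chr19:54040758-54041964) from 44.8, 36.6 and 53.3% to 1.63, 0.893 and 1.13% (adjusted p = 6.89e-06). The downstream start (54058081) was nearly full in conventional cells, at 98.6, 95.8 and 95.8%, and kept 15.2, 15.97 and 25.3%. Its island (chr19:54057333-54058367) went from 99.6, 96 and 95.7% to 15.8, 12.1 and 26.5%. The upstream island (chr19:54023722-54024937) was nearly empty, at 3.03, 7.36 and 2.86%, and had no methylated call in a reset library, which at its 153 calls or more allows up to 1.96% (adjusted p = 0.00352).

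The 3 ZNF331 islands thus stood at the bottom, the middle and the top of the scale in conventional cells, and all 3 were lower in reset cells. All 25 ZNF331 windows were lower, in 3 clusters whose windows share reads, beside 80.9% of all promoters. The first start (54022781), which lies outside islands, went from 94.03% ± 3.81 to 41.1% ± 1.47.

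Tiles of 500 bp were then laid over each gene and 5 kb on each side, to find all places at 30 to 70% in conventional cells, whether or not a start or an island is there. Of 1605 tiles with a CpG at the 7 loci, 813 had 10 or more calls in every library, and 76 of these (9.35%) lay in the range, against 99817 of 1982370 (5.04%) in the genome. By locus the share ran from 1.55% at IGF2R and 3.1% at GRB10, both below the genome, to 36.5% at PEG3/ZIM2. As the tiles were chosen by their conventional level, their change is a description with no test. In reset cells 15 of the 76 were under 10%, 34 at 10 to 30%, 27 at 30 to 70% and 0 over 70%. In percent these shares are 19.7, 44.7 and 35.5, beside 26.1, 48.8 and 25.1 for the tiles of the genome in the same range. The share at 30% or more moves with the choice of tiles: it was 8 of 40 tiles with a range of 40 to 60%, and 8 of 31 with a minimum of 20 calls, so no excess over the genome is read from it. The median went from 56.2 to 25.8% at the loci and from 59.04 to 18.97% in the genome.

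**Figure D3:**
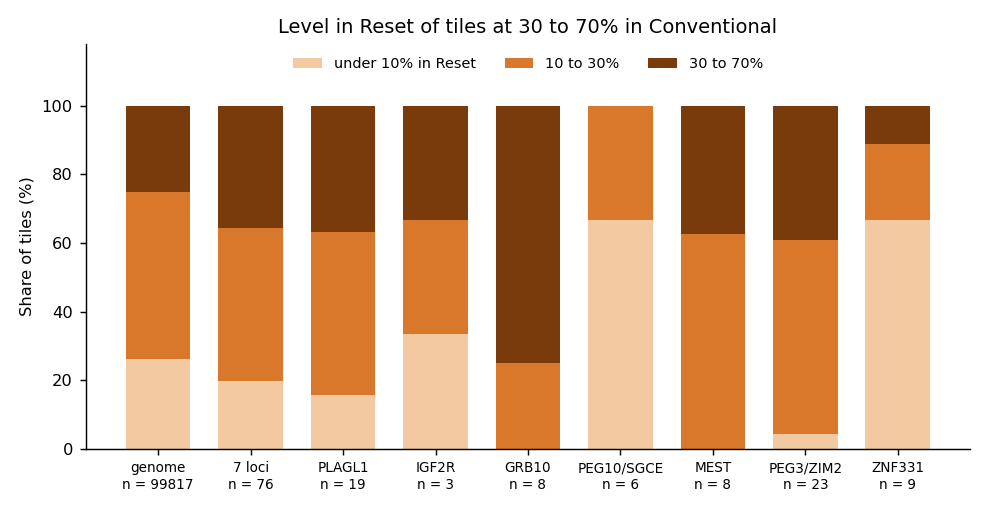
Share of the tiles at 30 to 70% in conventional cells (vertical axis, percent) that were under 10%, at 10 to 30% or at 30 to 70% in reset cells, for the genome, the 7 loci together and each locus, with the number of tiles below each bar. PEG10/SGCE and ZNF331 have the largest share under 10% (66.7% each) and GRB10 the largest share at 30 to 70% (75%), on 6, 9 and 8 tiles.

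The intermediate level was also read in libraries that had not chosen the tiles. When the tiles were chosen by 2 conventional libraries and read in the third, the median of the left-out library was 56.2 to 62.3% over 70 to 82 tiles, beside 56.4 to 57.6% in the libraries that chose them. The reset median of these tiles was 25 to 25.8%. Summed over the 76 tiles, the level was 51.5, 55.6 and 52.3% in conventional and 20.7, 20.6 and 21.2% in reset cells, on 2530 to 3290 calls per library.

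The tiles in and outside islands were then summed apart. The 15 tiles in islands went from a summed 49.4% ± 2.21 to 15.4% ± 0.742, and the 61 outside islands from 55.7% ± 2.36 to 25.9% ± 0.427. Of the island tiles 6 of 15 (40%) ended under 10%, beside 45.8% of the 7236 island tiles in that range in the genome and 40.4% on the autosomes. Outside islands 9 of 61 (14.8%) did, beside 24.6%. At 30 to 70% stayed 2 of the island tiles, both of MEST (13.3%, beside 17.5% in the genome), and 25 of the others (40.98%, beside 25.6%).

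**Figure D4:**
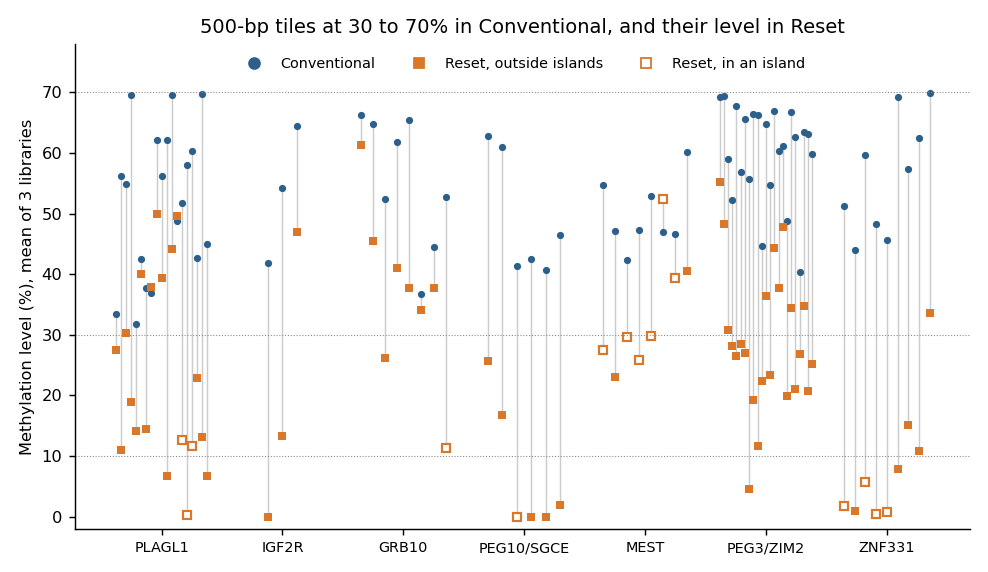
The 76 tiles at 30 to 70% in conventional cells, in chromosome order within each locus, with the mean level of 3 conventional libraries (circles) joined to that of 3 reset libraries (squares, open where the tile overlaps a CpG island). Dotted lines mark 10, 30 and 70%. At PEG10/SGCE and ZNF331 most squares lie near 0, at MEST all lie at 23.02% or above, and they spread from 0.214 to 50% at PLAGL1 and from 4.52 to 55.2% at PEG3/ZIM2.

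At PLAGL1 19 tiles lay in the range, and 3 ended under 10%, 9 at 10 to 30% and 7 at 30 to 70%. Their summed level was 46.9, 58.1 and 53.2% and 16.9, 17.9 and 19.9%. The 3 island tiles went from a summed 43.1, 65.2 and 61.6% to 6.57, 5.19 and 6.98%. The tile from 144329001, with 69 CpGs, was left at 0, 0 and 0.641%, and the other two at means of 12.7 and 11.6%. The tile from 144315001, outside the island, went from a mean of 62.2 to 6.67%. Its reset libraries were at 20, 0 and 0% on as few as 10 calls. A count of 0 allows up to 30% there, so it is not ranked against those 2. The 16 tiles outside islands held 59.5% of their conventional level.

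Some tiles of this locus kept their level, among them that from 144289501, with means of 36.9 and 37.9% on 18 to 36 calls. The tile from 144328001, over exons of HYMAI and PLAGL1, was another. It was at 48.3, 48.5 and 49.4% in conventional and 48.5, 48.5 and 51.6% in reset cells, with 19 CpGs and 64 to 101 calls per library. The next tile, from 144328501, went from 48, 66.7 and 40.5% to 7.5, 17.6 and 12.8%. The small island of the 200-bp set that overlaps the tile from 144328001 (chr6:144328284-144328506, 10 CpGs) was at 45, 40 and 38.9% and 43.6, 59.1 and 48% and did not pass (adjusted p = 0.357). Neighbouring tiles of this locus thus ended at 49.5, 12.7 and 0.214%.

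At IGF2R 3 tiles lay in the range, and they ended at 0, 13.4 and 46.9%. With conventional replicate 1 left out of the choice, the summed reset level of the locus was 19.1% in place of 12.4%, and over the other settings tried it ran from 0% with a minimum of 20 calls to 25.3% with a range of 20 to 80%. None of the 3 lies in the intronic island near AIRN, whose tiles ran from 96 to 100% in conventional and from 22.7 to 46.3% in reset cells. All 187 tiles of the locus over 70% had a reset median of 42.7%.

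At GRB10 8 tiles lay in the range and 6 of them stayed at 30 to 70%. They were at a summed 52.4, 60.6 and 48.96% and 29.4, 28.4 and 36.6%. The island tile from 50849501 went from 62.2, 54.1 and 41.9% to 7.14, 15.8 and 10.9%. The next tile, from 50850001 with 76 CpGs, began just above the range and went from 72.8% ± 8.59 to 0.473% ± 0.819. The tile on the other side, from 50849001 with 19 CpGs, was at 20.4, 70.2 and 42.9% and 37.5, 28.9 and 47.1%, where the groups overlapped on a wide conventional spread. The 7 tiles outside islands together held 72.3% of their level, on 166 to 202 calls per library. When conventional replicate 1 was left out of the choice of tiles, the reset level of the locus was 22.7% in place of 31.5%, and with tiles shifted by 250 bp it was 19.4%.

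At PEG10/SGCE 6 tiles lay in the range, and 4 of them are neighbours from 94286001 to 94288000 in an intron of PEG10. That run of 83 CpGs was at 34.03, 38.8 and 52.5% in conventional and 0, 0 and 1% in reset cells, on 188 to 288 calls. The other 2 tiles, in the SGCE body, were left at 25.7 and 16.9%.

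At MEST 8 tiles lay in the range, and 7 of them form an unbroken run from 130130001 to 130133500 with 214 CpGs. The run was at 54.7, 55.7 and 35.97% in conventional and 36.1, 37.2 and 37.8% in reset cells, on 442 to 605 calls. All 3 reset libraries lay between the lowest and the highest conventional library. That overlap rests on conventional replicate 3 alone, since conventional replicates 1 and 2 lay above every reset library. The tile with the most CpGs, from 130132001 (48 CpGs), was at 50, 60.5 and 30.4% and 48.6, 48.4 and 60.3%. None of the 8 tiles ended under 10%, beside 26.1% of all such tiles of the genome, and none of the 6 in islands did, beside 45.8% of island tiles of the genome and 40.4% of those on autosomes.

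The MEST libraries of a group were far apart in single tiles. The tile from 130131501 was at 74.5, 67.4 and 16.7% in conventional and 7.14, 41.7 and 40.5% in reset cells. Over the run these differences largely evened out in reset cells, with an SD of 0.865 points against 11.1 in conventional cells.

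At PEG3/ZIM2 23 tiles lay in the range, none of them in an island, and they were scattered over the gene bodies and the sequence on either side. They went from a summed 58.4, 60.4 and 64.02% to 29.95, 32.6 and 26.8%, and 1 ended under 10%, 13 at 10 to 30% and 9 at 30 to 70%. The imprinted promoter region itself was over 70% and so is not among them. It formed the longest stretch of lost tiles at the 7 loci: 8 neighbouring tiles from 57348501 to 57352500, 203 CpGs in 4000 bp, had means of 82.2 to 95.4% in conventional and 0 to 2.24% in reset cells.

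The tiles on either side of that stretch, from 57348001 and 57352501, kept 22.9 and 16.4%, well above the stretch itself.

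At ZNF331 9 tiles lay in the range, and 6 ended under 10%. The run from 54040501 to 54042500, 4 tiles and 134 CpGs over the canonical start, went from 50.7, 46.01 and 57.3% to 4.67, 1.92 and 1.55%. Within it the tile from 54041001 was at 24.8, 20.3 and 100% in conventional cells, so conventional replicate 3 set its place in the range. With that library left out of the choice, the summed reset level of the locus was 6.48% in place of 4.15%. It was 8.56% with equal weight per tile, 8.22% with a range of 20 to 80%, 2.51% with 40 to 60%, 2.38% with a minimum of 20 calls and 1.46% with tiles shifted by 250 bp. The tiles over the start and just past the end of the upstream island, from 54023501 and 54025001, went from 51.3% ± 16.01 and 44.1% ± 16.1 to 1.78% ± 0.4995 and 0.901% ± 1.56.

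**Figure D5:**
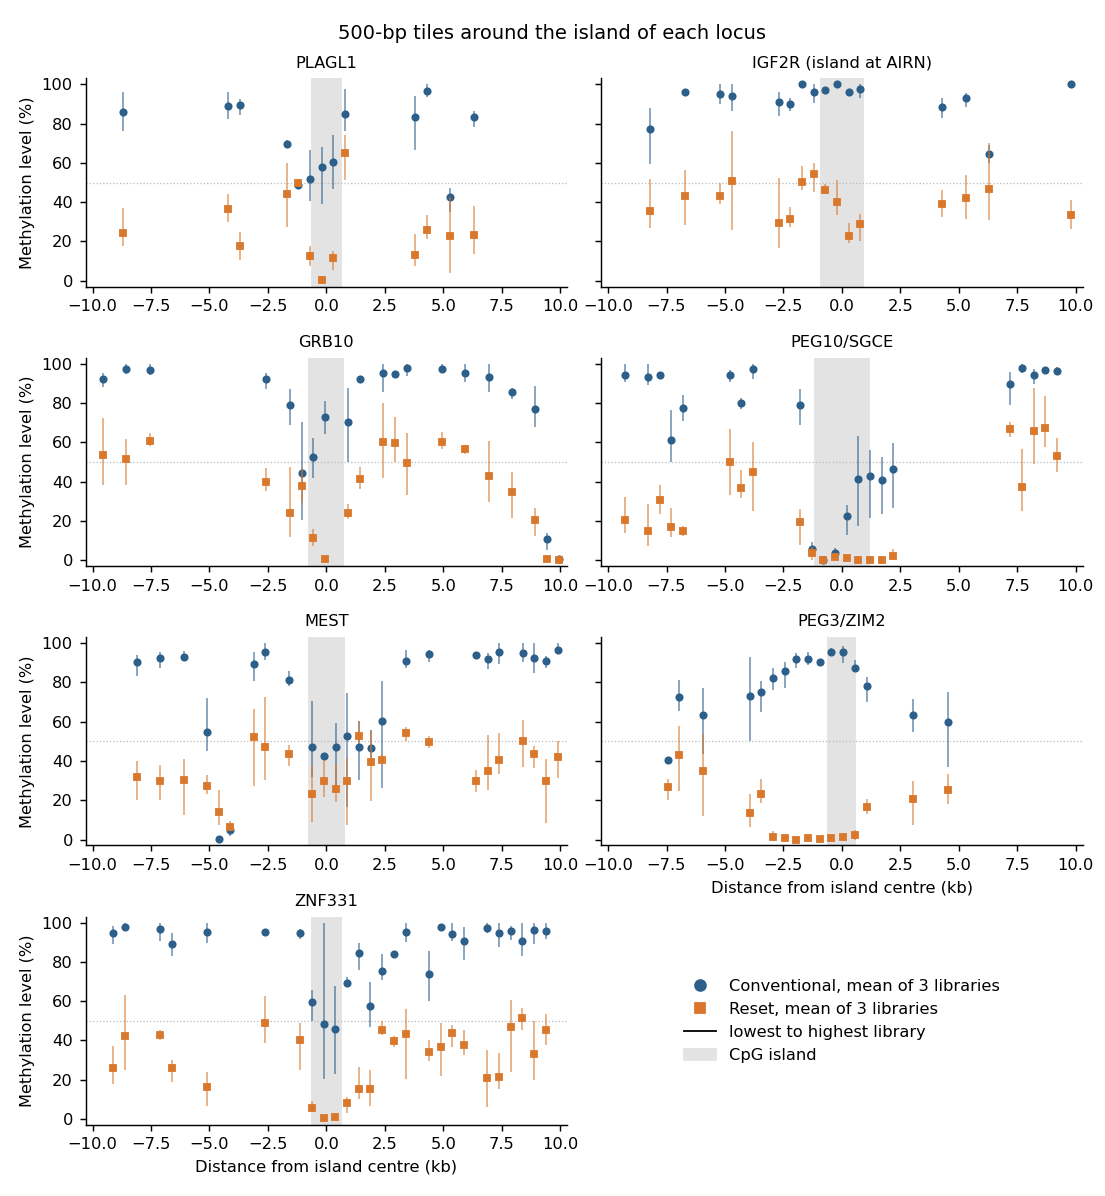
Methylation level (percent, vertical axis) of the tested 500-bp tiles within 10 kb of the CpG-rich region of each locus, by distance from its centre (kb, along the chromosome, grey: the region as predicted with at least 200 bp). Circles are means of 3 conventional and squares of 3 reset libraries, lines span the lowest to the highest library, and the dotted line marks 50%. Within the region the lowest squares lie at 0.214% at PLAGL1, 0.473% at GRB10 and 0.483% at ZNF331, at 0% at PEG10/SGCE and near it at PEG3/ZIM2, but at 22.7% at IGF2R, and at 23.02% at MEST.

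Counted over all tiles at 30% or more in conventional cells, in or above the range, 34 of 779 at the loci ended under 10% (4.36%), beside 8.31% in the genome. By locus there were 4 of 79 at PLAGL1 (5.06%), 4 of 190 at IGF2R (2.11%) and 3 of 253 at GRB10 (1.19%). The others were 6 of 72 at PEG10/SGCE (8.33%), 0 of 27 at MEST, 10 of 63 at PEG3/ZIM2 (15.9%) and 7 of 95 at ZNF331 (7.37%). The 703 tiles over 70% had a reset median of 41.3%, beside 34.2% in the genome, with quartiles of 31.3 and 48.9% beside 22.1 and 44.8%. GRB10 had the highest of these medians among the 7 loci, 45.2%, and PLAGL1 the lowest, 28.7%.

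Among all 813 tested tiles, chosen by position only, 764 were lower, 8 were higher and 41 did not pass, with 95.9% lower and 0.737% higher over the genome. At 8 tiles the groups did not overlap with reset cells above, beside 0.677% of all tiles. Of the 8 higher tiles 7 lie at PLAGL1, between 144280001 and 144295000, around the gene body starts described above. Their means were 0.855 to 11.7% in conventional and 17.6 to 31.4% in reset cells. They are 7 of the 96 tested tiles of the locus, and of the 17 in that span, whose ends they set themselves. In the clearest of them, from 144294501, the levels were 5.08, 2.33 and 3.92% and 39.4, 23.8 and 27.03% (adjusted p = 1.70e-05). With at least 20 calls in every library 3 tiles were higher in all. The eighth lies in the first MEST island, from 130126001, at 0, 0.581 and 0% and 8.94, 25.4 and 7.61%.

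Coverage was compared as a check on copy number. Relative to the autosomes of the same library, the loci with 500 kb on each side had a reset to conventional ratio of 0.913 (PEG10/SGCE) to 1.04 (IGF2R). The ratio of MEST was 1.01 and that of PEG3/ZIM2 0.952. Relative to the autosomes, conventional libraries lay lowest at ZNF331 (0.886 to 0.905) and highest at PEG10/SGCE (1.2 to 1.23). Reset libraries were at 0.849 to 0.922 and 1.1 to 1.12 there. The ratios of reset to conventional cells say nothing of a change that both groups share or of one in a minority of cells.

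The letters bound by ZFP57, TGCCGC on either strand, were counted as a property that the choice of genes did not use. They occur in 8 of the 15 member islands (53.3%), beside 58.7% of all 25825 islands, with medians of 0.78 and 0.85 per kb. The 15 leave out the island near AIRN and include islands almost unmethylated in conventional cells. The share is therefore not one of imprinted regions. The island with the most was that of GRB10 with 8 on 1395 bp. It was followed by PLAGL1 (1090 bp), the MEST island over the start (829 bp) and PEG3/ZIM2 (1089 bp) with 6 each. The distal PLAGL1, IGF2R promoter, upstream GRB10 and first MEST islands had 2, 1, 4 and 2. Those were at means of 2.51% or less in conventional cells. The PEG10/SGCE and ZNF331 islands and the upstream MEST island of the imprinted region had 0. The MEST islands with 6 and 0 lie in the same unbroken run of tiles, and whether these letters bear on the outcome was not tested.

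The neighbouring genes and antisense partners of the loci form a list of 36, of which 34 have an annotated promoter with enough calls. Of these 27 were lower, 1 was higher and 6 did not pass, which is near the 80.9% lower and 2.82% higher over all promoters. Of the 4 with a conventional level of 30 to 70% none kept 80% of it, beside 6.24% of the 19044 promoters of the genome in that range. HYMAI, AIRN, MIMT1 and MESTIT1, which start in or next to the imprinted regions, are described with their loci. The only gene that rose was COL1A2, a fibrillar collagen gene that lies near SGCE, from 1.72, 3.75 and 3.85% to 23.3, 21.6 and 38.9% (adjusted p = 1.39e-06).

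Other imprinted genes were counted from a list of 26. Of these 14 were lower, 4 were higher and 8 did not pass, beside 80.9% lower and 2.82% higher over all promoters. The list began lower, with a conventional median of 36.5% beside 76.5% for all promoters. Several that did not pass were at 4.98% or less in conventional cells, so the counts are not read as particular to imprinted genes. In the list 11 had a conventional level of 30 to 70%. Of those 11, 4 kept at least 80% of their level in reset cells, beside the 6.24% of all promoters in the range, or 6.91% of autosomal ones, a description with no test. Among the 7 representative starts of the 9 genes in the range, 1 did, the canonical start of MEST with 84.6%, which became 73.2% without conventional replicate 3. The 4 other imprinted genes are GNAS-AS1 at 41.9 and 40.4%, PEG13 at 45.9 and 44.4%, RTL1 at 39.2 and 50.9%, and DIRAS3 at 45.05 and 56.6%. RTL1 and DIRAS3 count among the 4 that were higher, with FAM50B and WT1. The groups overlapped at RTL1 and DIRAS3 and did not at FAM50B and WT1. WT1 rose between low levels, from a mean of 1.34 to 8.97%.

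As a measure of likeness, promoters of other protein-coding genes were ranked by their mean absolute difference from a member promoter over the 6 libraries. Nearest to the PEG3 promoter (start 57352029), which had the largest fall among member promoters in islands, were PDE1A (0.606 points), HCAR1 (0.857) and COL9A1 (1.15). Nearest to the MEST promoter (start 130132236), which had the smallest among those at 30% or more, were RASL11B (3.499 points), MMEL1 (3.75) and ADGRG1 (3.89). Promoters outside the lists of imprinted genes thus had values as near as these to both.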

How the data were processed

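Genomic DNA of 3 conventional and 3 reset H9 libraries had been sonicated, ligated to methylated adapters, bisulfite converted and sequenced. Reads had been trimmed by the authors (Trim Galore, defaults) and mapped to GRCh37 by Bismark on Bowtie2. The submitters' processing notes name Bismark 0.9.0 and the study's methods an earlier version, so the version used is uncertain. Removal of duplicate reads is not given in the sources used here, and duplicates would make levels look more precise than they are. The deposited files give for each cytosine the percent methylation, the methylated read count and the unmethylated read count. Positions were found to count from 0. The study calls the libraries biological replicates, but how the cultures were kept apart is not given in the sources used here. The p-values therefore speak for these libraries only. They set the difference between the groups against a spread between libraries that is moderated over all features of a kind, not the region's own spread alone.

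Both strands of each CpG on chromosomes 1 to 22 and X were summed. The level of a region is its methylated calls over all calls, and a region needed at least 10 calls in every library. Promoters (1000 bp upstream to 500 bp downstream of each start in GENCODE release 44, lifted to GRCh37), CpG islands and 500-bp tiles were tested genome-wide with a quasi-binomial logistic model, its dispersion moderated with limma 3.58.1 (R 4.3.3) and kept at 1 or more, two-sided, with Benjamini-Hochberg adjustment over all features of a kind. The model was tested on simulated data. A permutation of 3 against 3 libraries cannot give a two-sided p under 0.1. Islands were predicted from the sequence (200-bp windows, GC of at least 55%, observed to expected ratio over 0.65, at least 500 bp; in the looser set at least 50%, 0.6 and 200 bp). Exons and introns are from the same annotation. Tables were read with Python 3.11.15 and pandas 2.3.3.

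The members and gene lists were chosen with earlier results of these data known. All members are named. Other genes are named where they kept at least 80% of a conventional level of 30 to 70% or rose, and the 3 nearest promoters are named for the member promoters with the largest and smallest fall. Libraries of a group differed by more than counting error (mean chi-square 1.29 to 1.43), so none was a repeat deposit. Alternatives changed the minimum of calls, the window, the island rule, the tile grid, the range, the test and the libraries.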

Additional observations from a re-analysis of the deposited data

How the results depend on the processing

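Over the alternatives, 240 of the values that answer a comparison stayed within their margin (1 SD, or 1.5 times for a count) and 53 moved. With a minimum of 5 or 20 calls, 1169 and 244 tiles were lower, 3 were higher with 20, and the range held 125 and 31 tiles, 8 of the latter at 30% or more in reset cells. With the grid shifted by 250 bp 5 tiles were higher. The looser islands gave 39 lower of 46 tested, beside 83.8% of all such islands. With the narrower promoter window (500 bp either side of the start) 1 member promoter and 2 of other genes at the loci were higher. Leaving out a library gave 1 to 7 higher promoters.

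The range of 20 to 80% held 138 tiles, 58 at 30% or more in reset cells, and that of 40 to 60% 40 and 8. The summed reset level over these tiles became 21.9% (PLAGL1), 25.3% (IGF2R) and 8.22% (ZNF331) with the range of 20 to 80%, 5.001% (IGF2R), 22.9% (GRB10), 0.333% (PEG10-SGCE), 23.7% (PEG3-ZIM2) and 2.51% (ZNF331) with 40 to 60%, 21.1% (PLAGL1), 19.4% (GRB10), 2.75% (PEG10-SGCE) and 1.46% (ZNF331) with the shifted grid. It became 6.62% (PEG10-SGCE) with 5 calls, 13.8% (PLAGL1), 0% (IGF2R) and 2.38% (ZNF331) with 20 calls, 23.8% (PLAGL1), 20.1% (IGF2R), 36.9% (GRB10), 7.42% (PEG10-SGCE), 33.5% (MEST) and 8.56% (ZNF331) with equal weight per tile. Leaving out a library gave 9.84 to 19.1% (IGF2R), 22.7 to 33.01% (GRB10) and 3.14 to 6.48% (ZNF331). Coverage ratios were 1.06 (IGF2R), 1.03 (GRB10), 0.9301 (PEG10-SGCE) and 0.9296 (PEG3-ZIM2) with 100 kb on each side and 0.923 (PLAGL1), 1.02 (IGF2R), 0.957 (GRB10), 0.936 (PEG10-SGCE), 1.02 (MEST) and 1.002 (PEG3-ZIM2) with 2000 kb, and 0.906 to 0.917 at PEG10-SGCE leaving out a library.

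The sign of a difference that did not pass turned in 13 cases, and the cause was not tested. The differences were promoter of GRB10 at 50860381 -0.0779 points, -0.359 to 0.302 leaving out a library and 0.0431 with the narrower window, promoter of MEST at 130126012 -0.572 points, -5.22 to 3.295 leaving out a library and 1.91 with the narrower window, island of PLAGL1 at 144384735 0.0943 points, -0.877 to 0.5798 leaving out a library. Those of the others were island of MEST at 130131687 -2.25 points, -12.9 to 4.699 leaving out a library, island of GRB10 at 50860131 0.0376 points, -0.309 to 0.2496 leaving out a library.

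Same-numbered libraries did not deviate together (correlations from -0.00474 to 0.00152), so the replicate numbers were not taken to pair them. With the replicate block 168 promoters were lower and 3 higher, 9 islands lower and 1 higher, 740 tiles lower and 7 higher, and 5 other imprinted genes higher in place of 4. At 2.51 to 3.49 calls per CpG, tiles with few CpGs carry wide counting error, and 792 of 1605 tiles at the loci were too thin to test.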
